A study of Mus musculus with 83 samples.

Results

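Ovarian follicles that had been vitrified, grown in culture and collected before the ovulatory hormone was given were compared with fresh follicles grown the same way. The 33 libraries are 15 of vitrified follicles and 18 of fresh follicles, out of 83 libraries in the series, and were taken by their titles (0 hour) and by their plate, which holds no other time. Each library is the RNA of a single follicle from wild-type CD-1 mice, an outbred stock. Every follicle of both groups was encapsulated in 0.5% alginate, grown for 8 days with recombinant follicle-stimulating hormone (rFSH, 10 mIU/ml), freed from the bead and collected at a diameter of 300 to 350 µm. The labels give hCG as the treatment of these libraries together with a time of 0 hours. The series' maturation medium holds hCG (a gonadotropin that binds the receptor of luteinizing hormone) at 1.5 IU/ml, 10 ng/ml EGF and 10 mIU/ml rFSH. The labels name neither the animals nor the culture runs behind each library, so p-values measure the spread between these follicles, some of which may share an animal.

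Vitrification is rapid cooling with cryoprotectants that turns the tissue glassy without ice crystals. A growing follicle consists of the oocyte, the granulosa cells around it and the theca cells outside the basement membrane. FSH acts on granulosa cells through its receptor Fshr and raises aromatase (Cyp19a1), which makes estradiol, and the inhibin subunit Inha. Kit ligand (Kitl) from granulosa cells acts on the oocyte and theca, and the luteinizing hormone receptor (Lhcgr) readies the follicle for the ovulatory surge. The transcriptome before hCG is therefore the starting point of the ovulatory response.

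The libraries held between 682192 and 4596591 counts (median 2809514) in vitrified follicles and between 1541663 and 6504535 counts (median 2276899) in fresh follicles. The means were 2494020 ± 1282750 (SD, n = 15) and 2825660 ± 1444760 (SD, n = 18; two-sided permutation test, p = 0.497). Vitrified libraries fill plate rows G (10 libraries) and H (5), and fresh libraries fill rows E (10) and F (8), so a row cannot be separated from its group. The 5 libraries of row H were the shallowest on the plate, at 682192 to 1346234 counts. Thinned to 682192 counts each, vitrified libraries showed 11725 ± 410 genes with a count and fresh libraries 12004 ± 288 (permutation test, p = 0.0287). The 50 most abundant genes took 49.4% ± 3.90 of the counts in vitrified libraries and 46.1% ± 3.95 in fresh libraries (permutation test, p = 0.0218; p = 0.228 without row H). The predicted gene Gm10800 alone took 9.79% ± 4.06 and 7.18% ± 2.15 of the counts.

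Granulosa markers made up 7.41% ± 0.521 of the counts in vitrified libraries and 6.95% ± 0.905 in fresh libraries, with 11 of 12 markers tested and Amh the one with a median count of 0. Oocyte markers summed to a median of 0.00426% in vitrified libraries (0.00231% to 0.0345%) and 0.00521% in fresh libraries (0.00247% to 0.0181%). Of the 23 oocyte markers in the table, 4 passed the filter on low counts and 5 had a median count of 0 (Nlrp5, Ddx4, Figla, Sohlh1 and Nobox). The oocyte factor Gdf9 had a median of 3.56 CPM (TMM-scaled counts for each 1e6) in vitrified and 4.34 CPM in fresh follicles. Immune markers summed to at most 0.00552% in any vitrified library and 0.0125% in any fresh library, and 11 of 13 in the table had a median count of 0. Granulosa markers thus took the largest share among the marker lists. In such bulk RNA, fewer cells of a type and less RNA per cell cannot be told apart.

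Of 8021 genes tested, 115 (1.43%) differed between vitrified and fresh follicles at an adjusted p under 0.05, and these are the genes called here. By edgeR's quasi-likelihood test, 66 genes (0.823%) were higher and 49 (0.611%) lower in vitrified follicles. An unadjusted p under 0.05 was reached by 1009 genes (12.6%). The differences were mostly modest: the median log2 fold change was 0.75 among the higher genes and −0.79 among the lower ones, and 31 called genes (0.386% of those tested) changed at least 2-fold, 17 up and 14 down. No gene had vitrified libraries entirely above or below the fresh ones (0.0% of genes), although 55 of the 66 higher genes lay above the fresh median in at least 13 of 15 vitrified libraries and 48 of the 49 lower genes lay below it. The group difference accounted for 6.80% of the variance of log2 CPM over all genes (permutation test, p = 0.0001, the smallest that 10000 permutations can give). Libraries were permuted without regard to plate row, which is nested in the groups, so this test does not separate group from row.

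The split between higher and lower genes depends on how libraries are scaled. Scaled by total counts alone, 33 genes were higher and 128 lower (20.5% of the calls higher, against 57.4% with TMM scaling), and the median of all genes moved to −0.12. On the authors' log2(TPM + 1) values, limma called 26 higher and 798 lower, with a median of −0.16. All fold changes below are relative to a median of all genes near 0. The number of calls also depends on the plate rows: without row E 40 genes were called, without row F 37, without row H 69 and without row G 373. Of the 48 called genes chosen by the naming rule, 9 were called under every alternative in which they were tested (16 for Kitl, 17 for H2-Q1 and 18 for the others), and these were Kitl, Cdkn1a, Fads2, Rps3a3 and Rps2 among the higher genes and H2-K2, H2-Q1, Serpina3a and Gm47547 among the lower ones. None of the 48 changed direction under any alternative.

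**Figure D1:**
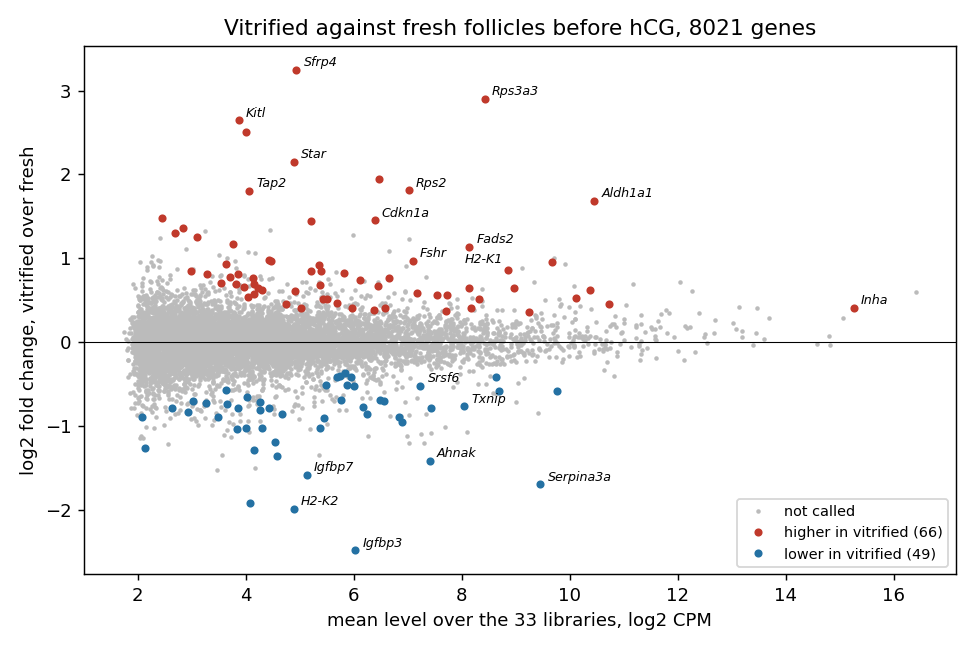
Each point is 1 of the 8021 genes tested, with its mean level over the 33 libraries (log2 CPM, horizontal) and its log2 fold change of vitrified over fresh follicles (vertical). The 66 higher and 49 lower genes are coloured, and Sfrp4 (3.25) and Igfbp3 (−2.48) lie at the upper and lower end.

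Among genes of FSH response and estradiol synthesis, 3 of 20 tested were higher in vitrified follicles, where 0.823% of all genes were, and none was lower (median log2 fold change of the list 0.11, beside −0.002 over all genes, and −0.02 with total-count scaling, where the median of all genes was −0.12). Fshr, the FSH receptor, ranged from 72.2 to 331 CPM (median 164) in vitrified follicles and from 38.4 to 142 CPM (median 96.1) in fresh follicles. It lay above the highest fresh follicle in 11 of 15 vitrified follicles, with a log2 fold change of 0.97 ± 0.18 (SE; adjusted p = 0.00118). Cyp19a1, aromatase, had medians of 355 CPM in vitrified and 231 CPM in fresh follicles (log2 fold change 0.65 ± 0.16, adjusted p = 0.0196). Inha, the inhibin alpha subunit and one of the most abundant transcripts, had medians of 43880 CPM and 33831 CPM in the same order (0.41 ± 0.10, adjusted p = 0.0332). The differences in these estradiol and inhibin genes were small and the groups overlapped. Cyp19a1 was called in no fit that left out a plate row (adjusted p 0.0540 to 0.170), Inha was not called without row H (adjusted p = 0.414), E or F, and neither was called with total-count scaling. Without row E the adjusted p of Fshr was 0.0798. Lhcgr varied widely, at 1276 to 11978 CPM (median 4841) in vitrified and 862 to 9160 CPM (median 2001) in fresh follicles, and was not called (0.71 ± 0.35, adjusted p = 0.397).

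The promoter of Fshr is shown because its FSH-receptor transcript leads this group. It is taken from RefSeq (GRCm38.p6, minus strand, chr17:89200626-89200925, 250 bases before to 50 after the start), with the E-box CACGTG in capitals; an E-box is the motif to which the USF factors bind. One E-box was found here, searched on both strands, and 7.15% of all 32851 promoters in the table hold one, and 10.6% of those of the genes tested here.
Fshr: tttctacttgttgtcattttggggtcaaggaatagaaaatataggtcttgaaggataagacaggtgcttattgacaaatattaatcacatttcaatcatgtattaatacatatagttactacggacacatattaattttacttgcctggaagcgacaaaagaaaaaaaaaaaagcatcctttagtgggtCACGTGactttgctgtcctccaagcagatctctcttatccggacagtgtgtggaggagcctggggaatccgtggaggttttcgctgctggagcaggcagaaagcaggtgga

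Kit ligand showed the largest difference among the granulosa genes listed. Kitl ranged from 2.34 to 55.6 CPM (median 31.2) in vitrified follicles and from 0.43 to 13.1 CPM (median 3.83) in fresh follicles. Of the vitrified follicles, 11 of 15 lay above every fresh one and the remaining ones lay within the fresh range, so the vitrified group was itself uneven. The log2 fold change was 2.64 ± 0.38 (SE; adjusted p = 9.23e-05), and the medians of rows G and H were close, at 28.1 and 31.2 CPM. Kitl was the 1 called gene among 9 tested of the cumulus and preantral granulosa list, where 1.43% of all genes were called. In this list 5 genes had an unadjusted p under 0.05, beside 12.6% of all genes, and 2 were called by DESeq2. The list's median log2 fold change was 0.21, and −0.02 to 0.28 in the alternatives. Nppc, which encodes the peptide that holds the oocyte in meiotic arrest, had medians of 147 CPM in vitrified and 95.4 CPM in fresh follicles and missed the threshold (0.60 ± 0.16, adjusted p = 0.0509).

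The Kitl promoter (RefSeq, GRCm38.p6, plus strand, chr10:100015571-100015870) is shown as that of the leading granulosa gene, with the GC box GGGCGG or its reverse complement in capitals. It holds 3 such matches on either strand, of which the pair nearest the start overlaps, and no E-box; 35.7% of all promoters in the table hold a GC box, and 66.2% of those of the genes tested here.
Kitl: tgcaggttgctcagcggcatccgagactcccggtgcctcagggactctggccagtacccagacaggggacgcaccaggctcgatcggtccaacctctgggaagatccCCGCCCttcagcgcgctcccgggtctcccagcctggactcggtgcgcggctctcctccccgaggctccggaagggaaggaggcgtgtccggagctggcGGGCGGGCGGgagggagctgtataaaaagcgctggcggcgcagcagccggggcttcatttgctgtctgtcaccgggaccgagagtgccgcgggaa

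Of 17 genes tested in the progesterone and luteinization list, Star and Sfrp4 were higher in vitrified follicles and none was lower (0.823% of all genes were higher and 0.611% lower), and the list's median log2 fold change was 0.12. Star, which carries cholesterol into mitochondria for steroid synthesis, ranged from 6.75 to 159 CPM (median 35.7) in vitrified and from 1.05 to 43.0 CPM (median 8.13) in fresh follicles (log2 fold change 2.15 ± 0.43, adjusted p = 0.00509). Sfrp4, a secreted Wnt inhibitor that rises in luteinizing granulosa cells, had the largest fold change of the named genes: 8.22 to 164 CPM (median 43.4) in vitrified against 0 to 47.8 CPM (median 2.02) in fresh follicles, 3.25 ± 0.61 on the log2 scale (adjusted p = 0.00255). Sfrp4 lay above the fresh median in 15 of 15 vitrified follicles, but was uneven within them, with medians of 14.7 CPM in row G and 80.1 CPM in row H. Cyp11a1, which cuts the cholesterol side chain, did not pass the test (0.06 ± 0.40, adjusted p = 0.969), and its medians were 1841 CPM in vitrified and 809 CPM in fresh follicles. The call of Star ended without row E (adjusted p = 0.180) or row H (0.0510), and that of Sfrp4 without row E (0.161).

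Aldh1a1, a retinaldehyde dehydrogenase, was the most abundant of the genes that changed at least 2-fold. It ranged from 859 to 4264 CPM (median 2029) in vitrified and from 152 to 1602 CPM (median 459) in fresh follicles. All 15 vitrified follicles lay above the fresh median and 11 above every fresh follicle (1.69 ± 0.31, adjusted p = 0.00241; 0.0771 without row E). Its relative Aldh1a7 had medians of 55.0 and 13.5 CPM in the same order (1.44 ± 0.38, adjusted p = 0.0497) and was called in no fit that left out a row. Fads2, the delta-6 fatty acid desaturase, ranged from 169 to 678 CPM in vitrified and from 63.4 to 302 CPM in fresh follicles (1.14 ± 0.18, adjusted p = 0.000236), with 12 of 15 vitrified follicles above every fresh one. Mrap, an accessory protein of the ACTH receptor, had medians of 10.0 and 3.20 CPM (1.36 ± 0.26, adjusted p = 0.00169; 0.0921 without row E). Defb19, a beta-defensin, had medians of 17.2 and 7.38 CPM (1.17 ± 0.28, adjusted p = 0.0230) and kept its call only where row G was the row left out.

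Among 24 cholesterol synthesis genes tested, the median log2 fold change was 0.23, with 21 of 24 members above 0 compared with 49.7% of all genes. Relative to the median of all genes, the list's median stayed between 0.09 and 0.31 in the alternatives, though on the TPM scale of the same genes it was itself −0.07. No gene was called by edgeR among 24 of the fatty acid and lipid droplet list (5 at an unadjusted p under 0.05, 1 called by DESeq2).

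**Figure D2:**
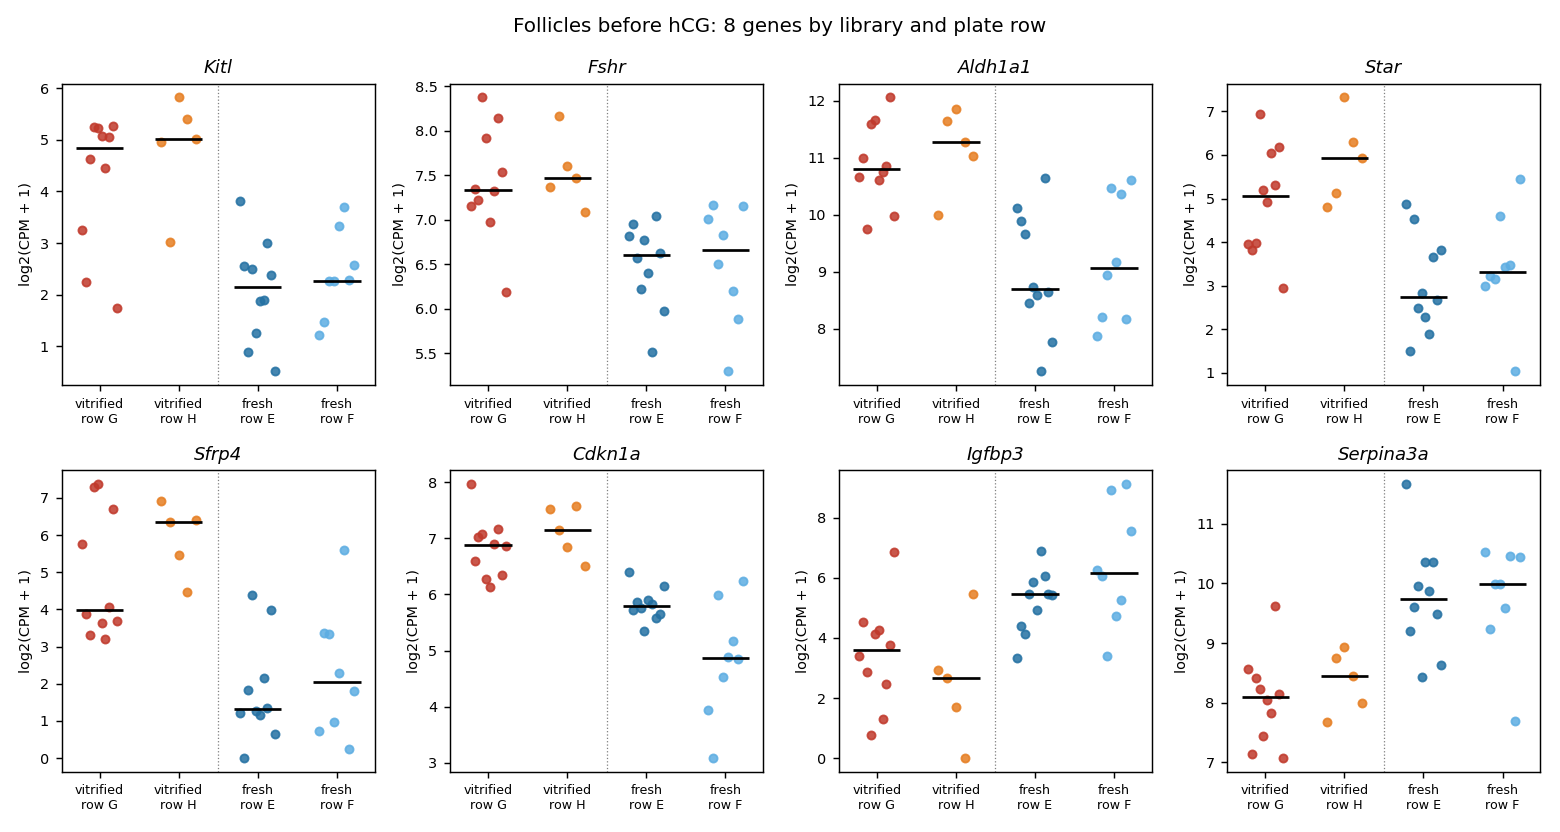
Each point is 1 follicle library, placed by plate row (vitrified rows G and H, fresh rows E and F), with its level as log2(CPM + 1), and the bars are row medians. Kitl, Fshr, Aldh1a1, Star, Sfrp4 and Cdkn1a sit higher and Igfbp3 and Serpina3a lower in both vitrified rows, and the groups overlap in each gene.

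Of 18 p53 target and apoptosis genes tested, 3 were higher and none was lower, where 0.823% of all genes were higher. Cdkn1a, the cyclin-dependent kinase inhibitor p21, ranged from 69.6 to 249.5 CPM (median 118) in vitrified and from 7.48 to 83.7 CPM (median 50.5) in fresh follicles. It exceeded every fresh follicle in 12 of 15 vitrified follicles (1.45 ± 0.22, adjusted p = 0.000236), and the log2 fold change was 1.17 to 1.90 in the fits that left out a row. Zmat3, an RNA-binding p53 target, had medians of 28.6 and 12.6 CPM (0.97 ± 0.20, adjusted p = 0.00418). Trp53inp1, a p53-induced stress protein, had medians of 74.8 and 42.3 CPM (0.83 ± 0.17, adjusted p = 0.00608). The pro-apoptotic Bax was not called (0.39 ± 0.12, adjusted p = 0.0905). The calls of Zmat3 ended without row F (adjusted p = 0.0615) or G (0.117), and those of Trp53inp1 without row E, F or H (0.0519 to 0.120). The list's median log2 fold change was 0.16, with 11 of 18 members above 0 beside 49.7% of all genes, and it lay between −0.12 and 0.38 in the alternatives (0.03 to 0.38 relative to all genes).

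Calls among cold, heat and other stress genes are given by list, where 1.43% of all genes were called and 12.6% had an unadjusted p under 0.05. None of 8 cold shock genes was called by edgeR or DESeq2 and none had an unadjusted p under 0.05. The nearest was Ybx1 (−0.66 ± 0.36, adjusted p = 0.452), and the classic cold-inducible RNA-binding proteins Cirbp (−0.05 ± 0.13) and Rbm3 (−0.16 ± 0.12) had medians of 27.02 and 145 CPM in vitrified against 28.2 and 177 CPM in fresh follicles. None of 19 cytosolic heat shock genes was called by edgeR (4 at an unadjusted p under 0.05, 1 called by DESeq2). The nearest was Hspa1b (0.87 ± 0.24, adjusted p = 0.0591), a gene with a near-identical copy. Hspa1a, next to Hspa1b among the genes tested on chromosome 17, had the opposite sign (−0.39 ± 0.30, adjusted p = 0.626). Of 20 endoplasmic reticulum stress genes 1 was called, Sesn2 (0.69 ± 0.18, adjusted p = 0.0371), while the chaperone Hspa5 was not (0.20 ± 0.10, adjusted p = 0.395). In this list 4 genes had an unadjusted p under 0.05 and 1 was called by DESeq2. Of 24 antioxidant genes, Gstm1, a glutathione transferase with a near-identical copy, was higher (0.52 ± 0.13, adjusted p = 0.0246) and Txnip, which binds thioredoxin, was lower. Of these 24 genes, 7 had an unadjusted p under 0.05 and 3 were called by DESeq2. Txnip ranged from 99.8 to 306 CPM in vitrified and from 134 to 532 CPM in fresh follicles, below the fresh median in 15 of 15 vitrified follicles (−0.77 ± 0.16, adjusted p = 0.00687). Sesn2, Gstm1 and Txnip each lost their call without some rows, Txnip without F (adjusted p = 0.107) or H (0.102). None of 15 immediate early genes was called by edgeR (2 at an unadjusted p under 0.05, 1 called by DESeq2), and Fos ran from 14.7 to 3091 CPM in vitrified and from 54.1 to 3084 CPM in fresh follicles.

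Igfbp3, a binding protein of insulin-like growth factors, had the largest decrease of the called genes. It ranged from 0 to 115 CPM (median 6.69) in vitrified and from 9.16 to 557 CPM (median 43.6) in fresh follicles (−2.48 ± 0.66, adjusted p = 0.0485). Igfbp3 lay below every fresh follicle in 8 of 15 vitrified follicles, and its call ended in each fit without a row (adjusted p 0.0617 to 0.482; −1.25 without row F). Igfbp7 had medians of 10.8 and 31.2 CPM (−1.59 ± 0.37, adjusted p = 0.0196), and lost its call without row F (log2 fold change −0.74, adjusted p = 0.437), G (0.107) or H (0.117). Of 19 genes of the insulin-like growth factor and insulin list, Pik3r1, the p85 subunit of phosphoinositide 3-kinase, was lower as well (−0.69 ± 0.15, adjusted p = 0.0109). Foxo3, a transcription factor inhibited by that kinase pathway, was higher (0.56 ± 0.11, adjusted p = 0.00404). Over all genes, 0.823% were higher and 0.611% lower. Pik3r1 was called in no fit without a row, and Foxo3 lost its call without row E (adjusted p = 0.0633) or F (0.0669). Serpina3a, a serine protease inhibitor of the follicle, fell to 134 to 792 CPM (median 283) in vitrified, against 205 to 3248 CPM (median 960.0) in fresh follicles, and lay below the fresh median in 15 of 15 vitrified follicles (−1.70 ± 0.29, adjusted p = 0.000721). Its relative Serpina3c was lower too (−1.03 ± 0.28, adjusted p = 0.0499) but was called in no fit without a row.

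Ahnak, a large scaffold protein, had medians of 92.0 and 227 CPM (−1.41 ± 0.28, adjusted p = 0.00414). Plxnd1, a semaphorin receptor, had medians of 9.64 and 27.8 CPM (−1.36 ± 0.32, adjusted p = 0.0190). Bmp1, the protease that trims procollagens, had medians of 23.2 and 55.0 CPM (−1.02 ± 0.22, adjusted p = 0.00724). These 3 genes each lost their call without row F (adjusted p 0.0612 to 0.274). Ahnak also lost it without row G (0.0652), Plxnd1 without row G (0.123) or H (0.108), and Bmp1 without row H (0.0880). Bambi, a decoy receptor of the TGF-beta family, had medians of 14.4 and 22.2 CPM (−0.81 ± 0.19, adjusted p = 0.0189) and was called in no fit without a row. Of the TGF-beta family list, 1 of 21 tested was higher (Inha) and 1 lower (Bambi), where 0.823% of all genes were higher and 0.611% lower.

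None of 24 extracellular matrix and basement membrane genes was called by edgeR (6 at an unadjusted p under 0.05, 1 called by DESeq2), yet 21 of them had a log2 fold change below 0. The list's median was −0.46, beside −0.002 over all genes, with a range from −1.53 to 0.32. Relative to all genes it stayed between −0.78 and −0.30 in the alternatives. The nearest to the threshold was Lum, lumican of the theca and stroma, at a median of 3.38 CPM in vitrified and 11.8 CPM in fresh follicles (−1.53 ± 0.44, adjusted p = 0.0723). Acta2, smooth muscle actin, had medians of 59.7 and 186 CPM (−1.20 ± 0.37, adjusted p = 0.104). Theca and stroma markers as a list divided: Star and Aldh1a1 of its 15 tested members were higher, 10 were below 0, and the list's median was −0.57. Over all genes, 0.823% were higher. Summed, the list took 0.818% ± 0.290 of the counts in vitrified and 0.571% ± 0.259 in fresh libraries (range 0.348% to 1.48% and 0.234% to 1.27%), mostly Lhcgr, which granulosa cells also express, and Myh11 alone had a median count of 0. The 2 endothelial markers tested were both below 0 and uncalled, and the summed endothelial level had medians of 0.00144% and 0.00364%. Lyz2, the only immune marker tested, had medians of 0.523 and 15.5 CPM (−1.50 ± 0.67, adjusted p = 0.336). The part of these cell types in the lower genes was not tested.

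Nfil3, a repressor tied to the circadian clock, had medians of 2.19 and 6.59 CPM (−1.27 ± 0.29, adjusted p = 0.0114). Srsf6, a splicing factor, ranged from 89.6 to 171 CPM in vitrified and from 134 to 224 CPM in fresh follicles, with 10 of 15 vitrified follicles below every fresh one (−0.52 ± 0.10, adjusted p = 0.00109; 0.0612 without row F). It was the 1 called of 24 splicing genes tested, where 1.43% of all genes were called. Mlxip, a glucose-sensing transcription factor, had medians of 26.7 and 55.9 CPM (−0.91 ± 0.24, adjusted p = 0.0474). Slc3a2, the heavy chain of amino acid transporters, had medians of 334 and 256 CPM (0.40 ± 0.11, adjusted p = 0.0388). Gm43305, an unnamed transcript, had medians of 6.53 and 20.9 CPM (−1.92 ± 0.33, adjusted p = 0.000902; 0.0689 without row G). Gm47547, annotated as antisense and with 3 near-identical copies, had medians of 12.8 and 32.9 CPM (−1.19 ± 0.20, adjusted p = 0.000334). Nfil3 lost its call without row F (adjusted p = 0.211) or G (0.0773). Mlxip was not called without row E, F or H, and Slc3a2 in no fit without a row. Neither edgeR nor DESeq2 called any of 38 nuclear-encoded oxidative phosphorylation genes, 28 cell cycle genes, 20 glycolysis genes or 23 autophagy genes, of which 4, 1, 1 and 2 had an unadjusted p under 0.05. The ovulatory genes Pgr, Areg, Ereg, Ptgs2 and Sult1e1 did not pass the filter on low counts, with a count in 10, 5, 8, 3 and 1 of 15 vitrified and in 15, 11, 9, 1 and 1 of 18 fresh libraries. Amh, Ddit3, Bmp15 and Zp3 did not pass it either.

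Part of the largest differences fell on genes with near-identical copies elsewhere in the genome, and the assignment of reads between such copies is uncertain. Rps3a3 is annotated by GENCODE vM21 as a processed pseudogene (GRCm38, chr13:108670603-108671397) of the ribosomal protein gene Rps3a1 on chromosome 3. It is identical to the coding part of Rps3a1 at 786 of 795 aligned bases (98.87%), and Rps3a2, a processed pseudogene on chromosome 14, at 788 of 792 (99.49%). A stretch of 90 bases is shown, chosen because no other of that length held more differing positions. Capitals mark the 4 positions at which the 3 transcripts are not all the same. The stretch runs from base 579 to base 668 in each.
Rps3a3: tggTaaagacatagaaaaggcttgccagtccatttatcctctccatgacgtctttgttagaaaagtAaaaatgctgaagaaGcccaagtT
Rps3a2: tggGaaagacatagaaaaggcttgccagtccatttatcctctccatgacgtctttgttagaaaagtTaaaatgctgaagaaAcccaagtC
Rps3a1: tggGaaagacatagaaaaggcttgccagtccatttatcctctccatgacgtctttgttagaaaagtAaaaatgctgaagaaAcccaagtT

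Rps3a3 ranged from 58.0 to 994 CPM (median 692) in vitrified and from 27.7 to 170.5 CPM (median 76.0) in fresh follicles. Its values fell into separate ranges: no library lay between 170.5 and 622 CPM, 13 vitrified libraries (8 of row G and 5 of row H) lay above this gap, and 2 vitrified and all 18 fresh libraries lay below it. The log2 fold change was 2.90 ± 0.29 (SE; adjusted p = 9.49e-08), the smallest p of the named genes. Rps3a2 was higher as well, with medians of 1210.05 and 529 CPM (0.95 ± 0.15, adjusted p = 0.000236). Rps3a1 itself was lower, with medians of 679 CPM in vitrified and 939 CPM in fresh follicles (−0.58 ± 0.14, adjusted p = 0.0171). So were the copies Gm13408 (−0.79 ± 0.13, adjusted p = 0.000390) and Gm8960 (−0.74 ± 0.20, adjusted p = 0.0499). The fits without a row are not given here for Rps3a1, Rps3a2, Gm13408 and Gm8960. Summed over the 7 members of the family, the level was 2720 ± 515 CPM in vitrified (SD, n = 15) and 2055 ± 651 CPM in fresh follicles (SD, n = 18), a ratio of means of 1.32.

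Rps2, a ribosomal protein gene of chromosome 17 with 27 near-identical copies, also had a gap between ranges of values. It ranged from 61.2 to 395 CPM (median 239) in vitrified and from 33.4 to 88.9 CPM (median 61.0) in fresh follicles (1.81 ± 0.23, adjusted p = 1.34e-05). No library lay between 98.9 and 231 CPM. Above this gap were 8 libraries of row G, 1 of row H and none of the fresh ones. Of these 9, 7 were above the gap of Rps3a3, beside 13 of all 15 vitrified libraries. The 2 vitrified libraries below the Rps3a3 gap, replicates 2 and 10 of row G, were above that of Rps2 (354 and 290 CPM). The median of Rps2 was 286 CPM in row G but 78.4 CPM in row H. Its near-identical copy Gm11249, a processed pseudogene, followed with medians of 38.02 CPM in row G and 7.78 CPM in row H, against 4.04 CPM in fresh follicles (2.51 ± 0.41, adjusted p = 0.000409; 0.110 without row G). Rps2-ps9 was called as higher (1.25 ± 0.33, adjusted p = 0.0419) but with the rows in the other order, at medians of 5.69 CPM in row G and 17.8 CPM in row H against 5.14 CPM in fresh follicles, and its call ended without row E, F or H (adjusted p 0.170 to 0.386). A sum over Rps2 and part of its copies, 18 symbols taken by name or from a shortened list of copies, was 798 ± 123 CPM in vitrified and 635 ± 155 CPM in fresh follicles. This sum leaves out some of the 27 copies and includes Rps2-ps9, for which the search found no near-identical copy, so it is not the level of the whole family. Of 52 ribosomal protein genes tested, 2 were called, Rps2 and Rps28, where 1.43% of all genes were, and the list's median was 0.02. Genes with a near-identical copy made up 14.9% of the called genes (17 of 114 with a position), close to 11.1% of all genes tested.

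**Figure D3:**
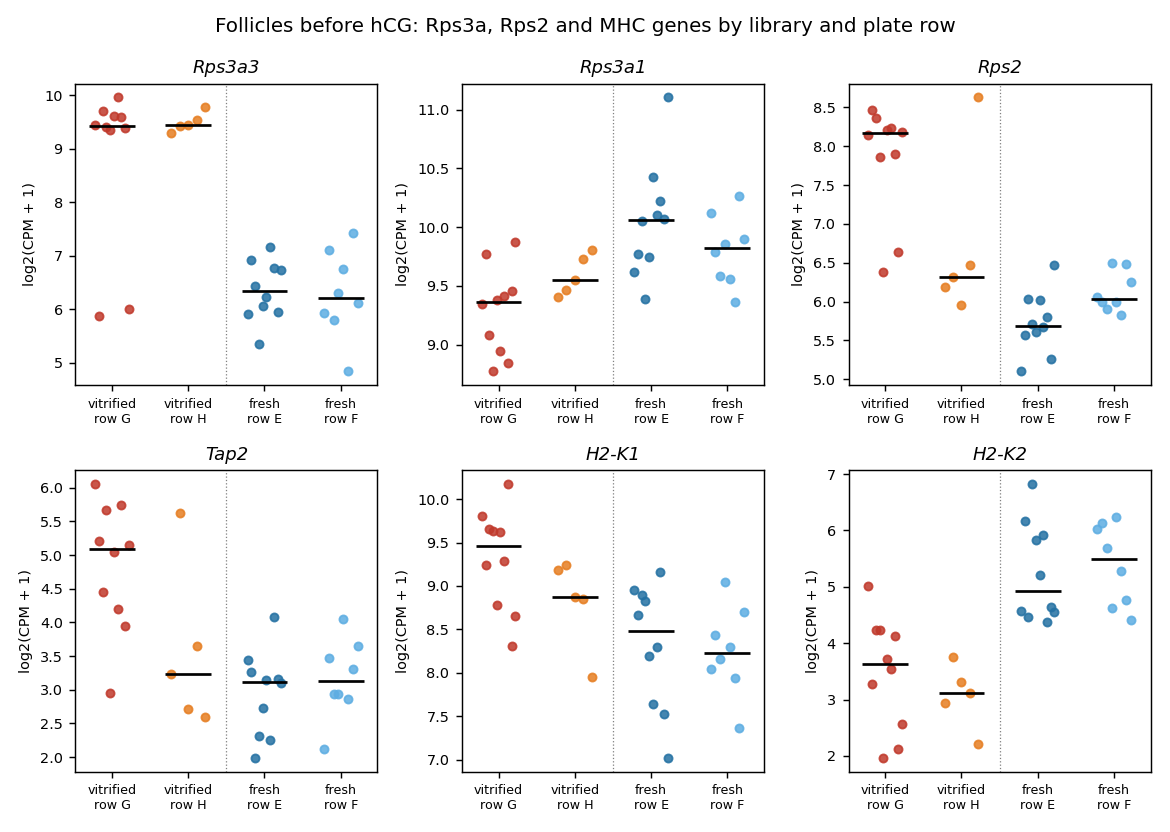
Each point is 1 follicle library by plate row, with its level as log2(CPM + 1), and the bars are row medians. Rps3a3 falls into 2 ranges with 13 vitrified libraries in the upper one, Rps2 and Tap2 are high mostly in row G, and H2-K1 is higher and H2-K2 and Rps3a1 lower in vitrified follicles.

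The called genes were unevenly spread over the genome. Chromosome 17 held 21 of them among 390 genes tested (5.38%), against 1.43% of all genes. Of these, 14 lay in a stretch of 2.22 Mb from Rps28 to H2-T22 (GRCm38, chr17:33819027-36042747), whose ends were chosen after the calls were seen, so no test is given. It holds the major histocompatibility complex (MHC), whose class I molecules present peptides at the cell surface. In the stretch 14 of 63 genes tested were called (22.2%), 7 higher and 7 lower. On the rest of chromosome 17, 7 of 327 were called (2.14%), and outside the stretch 100 of 7834 (1.28%).

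Neighbouring genes of the stretch moved in opposite directions. H2-K1, the classical class I heavy chain, ranged from 247 to 1154 CPM (median 602) in vitrified and from 129 to 573 CPM (median 315) in fresh follicles (0.86 ± 0.20, adjusted p = 0.0134). H2-K2, annotated as a pseudogene next to it, ranged from 2.90 to 31.2 CPM (median 8.89) in vitrified and from 19.8 to 112 CPM (median 36.9) in fresh follicles, with 14 of 15 vitrified follicles below every fresh one (−1.99 ± 0.31, adjusted p = 0.000262). Tap2, a subunit of the peptide transporter that loads class I molecules, was higher (1.80 ± 0.30, adjusted p = 0.000515), with medians of 33.2 CPM in row G and 8.37 CPM in row H against 7.71 CPM in fresh follicles; without row G its log2 fold change was 0.84 (adjusted p = 0.273) and without row E its adjusted p was 0.0904. Psmb8, an immunoproteasome subunit, was higher (0.85 ± 0.23, adjusted p = 0.0469) but was called in no fit without a row. The class I genes H2-Q1 (−1.29 ± 0.23, adjusted p = 0.00109), H2-Q6 (−1.03 ± 0.26, adjusted p = 0.0246) and H2-Q4 (−0.95 ± 0.23, adjusted p = 0.0208) were lower. The calls of H2-Q6 (adjusted p 0.175 to 0.178) and H2-Q4 (0.0921 to 0.167) ended without row E, F or H. The summed class I level was 1605 ± 595 CPM in vitrified and 1141 ± 531 CPM in fresh follicles. B2m, which pairs with class I heavy chains, was not called (−0.25 ± 0.12, adjusted p = 0.406). Class I genes resemble each other in sequence, so the assignment of reads among them is uncertain. By the measure used here, H2-K1, H2-K2, H2-Q1, H2-Q4 and H2-Q6 had no near-identical copy. This measure compares reference transcripts at 95% identity or more, so it cannot show how reads were assigned among class I genes.

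Genes of the stretch with other functions were called too. Agpat1, an enzyme of phospholipid synthesis, ranged from 32.1 to 93.1 CPM in vitrified and from 64.3 to 134 CPM in fresh follicles, with 14 of 15 vitrified follicles below every fresh one (−0.86 ± 0.12, adjusted p = 1.34e-05). Cd320, the receptor for vitamin B12 carried by transcobalamin, was lower (−1.03 ± 0.21, adjusted p = 0.00418; 0.0695 without row G and 0.114 without row E). The collagen receptor Ddr1 was higher (0.76 ± 0.16, adjusted p = 0.00608), as were the ribosomal protein gene Rps28 (0.93 ± 0.22, adjusted p = 0.0190), Vps52 of vesicle tethering (0.70 ± 0.14, adjusted p = 0.00495) and the lysosomal thioesterase Ppt2 (0.66 ± 0.15, adjusted p = 0.0169). H2-T22, a nonclassical class I gene, was lower (−0.71 ± 0.14, adjusted p = 0.00358). Rps28 lost its call without row E, F or G, and H2-K1 likewise. For Agpat1, Ddr1, Vps52, Ppt2 and H2-T22, named after their values were seen, the fits without a row are not given here.

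**Figure D4:**
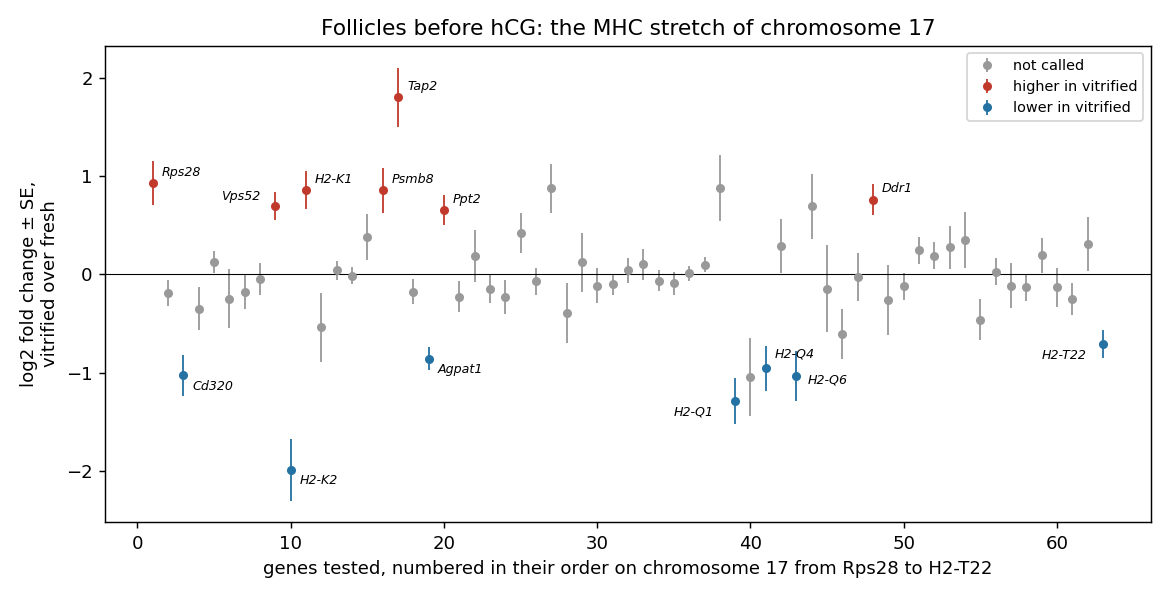
Each point is 1 of the 63 genes tested between Rps28 and H2-T22 on chromosome 17, numbered in order, with its log2 fold change of vitrified over fresh follicles and its SE. The 7 higher and 7 lower genes lie among genes near 0, and H2-K2 (−1.99) and H2-K1 (0.86) are side by side.

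The same difference was then read in follicles after hCG, in other libraries on another plate (5 vitrified and 6 fresh at 1 h, 7 and 7 at 4 h, 3 and 4 at 8 h). There each group fills its own plate row, so a row cannot be separated from its group at these times either. Of the 115 genes called before hCG, 95 (82.6%) had the same sign at 1 h, 95 (82.6%) at 4 h and 91 (79.1%) at 8 h, beside 59.8%, 57.7% and 54.6% of all 8021 genes. At each time 5 of the 115 were also called there, all with the same sign, while 0.527% of 11576 genes were called at 1 h, 0.121% at 4 h and 1.91% at 8 h. Rps3a3 was called at every time, at 2.73 (adjusted p = 0.00465), 3.18 (0.000274) and 2.95 (0.00839). Sfrp4 stayed at 3.62, 3.12 and 3.75 on the log2 scale (adjusted p 0.0624 to 0.146), and Aldh1a1 at 1.29, 1.37 and 1.67 (adjusted p 0.291 to 0.515), with few libraries behind each. H2-K2 was at −1.78, −1.67 and −2.80, and was called at 8 h (adjusted p = 0.00621).

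Other genes had smaller values after hCG. Kitl was at 1.44, 0.59 and −0.12 at 1, 4 and 8 h, Star at 0.37, 0.00 and 1.23, and Cdkn1a at 0.73, 0.67 and 0.52, none of them called. The difference between the 0 h value and the later ones was tested directly, and passed for 7 genes at 1 h (0.0605% of 11576), 2 at 4 h (0.0173%) and 100 at 8 h (0.864%). An unadjusted p under 0.05 was reached by 7.2%, 5.43% and 9.93% of genes at 1, 4 and 8 h. Kitl, Star and Cdkn1a did not pass after adjustment at any time, so a change of their difference with time is not shown. The nearest to passing was Kitl at 8 h, with a difference of 2.76 ± 0.89 (SE; adjusted p = 0.143 in this test). Of the 115 genes, 1 passed at each time, and these were Fbxw11 at 1 h, Mgme1 at 4 h and Gtf2a1 at 8 h, named for this outcome.

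**Figure D5:**
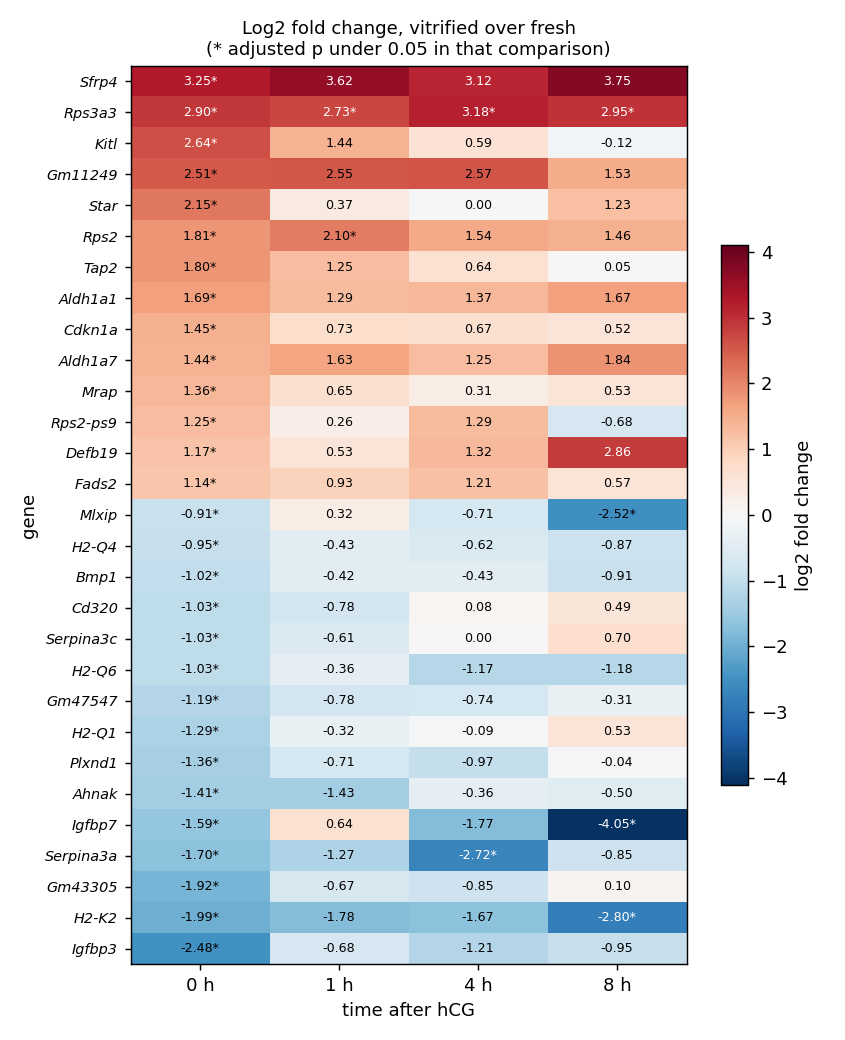
Each cell gives the log2 fold change of vitrified over fresh follicles for 1 of 29 leading genes (14 higher, 15 lower, from top to bottom by their value at 0 h) at 0, 1, 4 and 8 h after hCG. Sfrp4, Rps3a3, Gm11249, Rps2, Aldh1a1 and Aldh1a7 stay above 1 throughout, H2-K2 stays below −1, and Kitl and Tap2 are near 0 by 8 h.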

How the data were processed

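Single follicles were sequenced by Smart-Seq2 and Nextera XT, which does not mark strand, per the labels' protocols, so a gene and an overlapping antisense gene cannot be told apart. The authors deposited estimated counts per gene symbol and log2(TPM + 1) values. The submitters' processing notes name Partek, Bowtie2, HISAT2, DESeq2 and the build mm10, with no versions; the handling of reads with several matches is not stated there. The deposited estimated counts were rounded to whole numbers. Genes were kept by filterByExpr with a minimum count of 10, scaled by TMM and tested with edgeR's robust quasi-likelihood test (edgeR 4.0.16, R 4.3.3), with Benjamini-Hochberg adjustment over all 8021 genes tested. DESeq2 1.42.0 and limma 3.58.1 (on log2(TPM + 1), pseudocount 1) were alternatives. CPM values use TMM-scaled totals. The fit was tested on simulated data with known changes. The later times were fitted in 1 model with these libraries, and each difference is within 1 plate but between plate rows. Single values per library were compared by permutation tests with 100000 resamples, or exactly with fewer than 10 libraries. Positions come from GENCODE vM21 (7897 of 8021 symbols matched). A near-identical copy is another gene matching at 95% identity or more over at least 50% of the transcript (BLAST+ 2.17.0).

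Genes were named by a rule: the 15 largest changes in each direction among called genes with a mean of at least 10 CPM, up to 4 called genes per list and direction (or the one nearest to the threshold), and a fixed set of follicle genes; Rps3a1, Rps3a2, Gm13408, Gm8960, B2m, Fbxw11, Mgme1, Gtf2a1, Agpat1, Vps52, Ppt2, Ddr1 and H2-T22 were added after their values were seen. Some genes chosen by the rule are not reported here. The members and lists were chosen with earlier results of these data known. Titles carry no replicate number, so no pairing was made. Of the genes tested, 13 carry symbols turned into dates, and 0 of these were called.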

Additional observations from a re-analysis of the deposited data

Results flagged for a closer look

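Tested as a difference of differences over 11576 genes, 5 genes named here had a vitrified minus fresh difference that was not the same before hCG as at a later time (edgeR's quasi-likelihood test). Hnrnpu, a nuclear RNA-binding protein, was at −0.24 ± 0.31 at 0 h and 3.06 ± 0.52 at 1 h on the log2 scale, a difference of −3.30 (adjusted p = 0.0106). Nfkbia, the inhibitor of NF-kB, was at −0.08 ± 0.14 at 0 h and −1.46 ± 0.25 at 1 h, a difference of 1.38 (adjusted p = 0.0191). Neither was called before hCG. Fbxw11, a subunit of a ubiquitin ligase, was at −0.71 ± 0.13 at 0 h and 0.54 ± 0.23 at 1 h, a difference of −1.26 (adjusted p = 0.0191). Mgme1, a mitochondrial exonuclease, was at −0.91 ± 0.24 at 0 h and 1.46 ± 0.43 at 4 h, a difference of −2.37 (adjusted p = 0.0451). Its level at 0 h was low, with medians of 2.25 CPM in vitrified and 5.18 CPM in fresh follicles. With no filter on low counts, no gene passed at 4 h, Mgme1 included. Gtf2a1, a general transcription factor subunit, was at −0.67 ± 0.18 at 0 h and 0.99 ± 0.41 at 8 h, a difference of −1.66 (adjusted p = 0.0498). The 1 h values rest on 5 vitrified and 6 fresh libraries, those of 4 h on 7 and 7, and those of 8 h on 3 and 4.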

How the results depend on the processing

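The counts of 66 higher, 49 lower and 115 genes in all moved by over 1.5 times under these settings. DESeq2 called 119 higher and 80 lower (199 in all, with 112 of the 115 among them). Total-count scaling gave 33 higher and 128 lower, and 35 higher without Gm10800 (71 lower). With limma on log2(TPM + 1) the calls were 26 higher and 798 lower (824), 28 and 663 (691) with a mean of at least 1, and 26 and 199 (225) with TPM rescaled without Gm10800; both settings without Gm10800 were chosen after seeing the data. Without row E they were 16 and 24 (40), without row F 24 and 13 (37), without row G 206 and 167 (373), and without row H 44 and 25 (69). These fits have fewer libraries, and 32, 35, 53 and 52 of the 115 were called in them in that order of rows. Other scalings, filters and covariates gave 86 to 126 calls in all, with 60 of the 115 among the 86 with the share of the top 50 genes as covariate, 76 among the 126 with no filter and 71 among the 100 with all 83 libraries. The differences of differences were 29 genes at 1 h with DESeq2 and 4 with total counts, against 7; 0 at 4 h with no filter, against 2 (DESeq2 3); and 212 at 8 h with DESeq2, against 100. At 4 h, 629 genes had an unadjusted p under 0.05. The difference in total counts was −1820620 without row G (exact permutation test, p = 0.0121) and 412858 without row H, and that in genes detected was −279.2 after thinning, −2347.2 without row G and 207.8 without row H, against −643.9. The cause was not tested. The share of variance ranged from 6.81% to 12.3%.

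Uncalled genes near 0 changed sign. On log2(TPM + 1), Aldoa was at −0.146 (−0.0178 without Gm10800), Aldh1a2 at −0.00392, Hspa5 at −0.0669, Hmox1 at −0.0423 and Fos at −0.762 (−0.639 without Gm10800). With total counts Cyp11a1 was at −0.0587 (−0.0199 without Gm10800). With log2 totals as covariate Cyp11a1 was at −0.0385 and Fos at −0.126; with the share of the top 50 genes Cyp11a1 was at −0.197, Fos at −0.0895 and Gdf9 at 0.137. Without row E, Gdf9 was at 0.0773, Fos at −0.369 and Nfkbia at 0.000256. Without row F, Aldh1a2 was at −0.0950, Nr4a1 at 1.68 and Hnrnpu at 0.0490. Without row G, Aldoa was at −0.0207, Hmox1 at −0.113, Gdf9 at 0.343, Nr4a1 at 0.963 and Nfkbia at 0.142. Without row H, Aldh1a2 was at −0.0576, Cyp11a1 at −0.257, Cirbp at 0.0155 and Fos at −0.520.

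No paired analysis was possible because the titles carry no replicate numbers. Depth limits genes of a few CPM in row H most, since its 5 libraries are the shallowest.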
